A study of Saccharomyces cerevisiae with 12 samples.

Results

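Budding yeast cells lacking Ups1 answered tunicamycin with a different set of transcripts than wild-type (WT) cells did, and this account is about that difference: the genotype by tunicamycin interaction. It used all 12 of the 12 poly(A)-selected RNA-seq libraries of the series in a 2 by 2 design, and all 5828 genes, of the 7110 features in the count table, that had enough counts to be tested. The groups were the ups1Δ knockout treated with tunicamycin at 1 μg/ml for 3 h, untreated ups1Δ cells, WT cells given the same treatment, and untreated WT cells, with 3 libraries each. The labels give S288c as the strain of every library and growth to log phase at 30 °C in SCD, a synthetic glucose medium, and they name no vehicle for the untreated cells. They number the libraries of a group as replicates but do not say that these came from separate cultures, so that the p-values measure the spread between these libraries.

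Tunicamycin blocks the first step of N-glycosylation, the transfer of N-acetylglucosamine phosphate to dolichol phosphate in the endoplasmic reticulum (ER). Unglycosylated proteins misfold in the ER, the sensor Ire1 then splices HAC1 mRNA, and the Hac1 transcription factor induces ER chaperones and other secretory genes, which is the unfolded protein response (UPR). Yeast under many stresses also represses ribosome production and induces a general stress program through the transcription factors Msn2 and Msn4. Ups1 is a lipid transfer protein of the mitochondrial intermembrane space that carries phosphatidic acid to the inner membrane, where it is used for cardiolipin. The comparison asks how far each of these programs ran in cells without Ups1.

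The libraries held 4650828 to 7101983 counts. UPS1 had 0 to 2 counts in the 6 ups1Δ libraries and 185 to 427 counts in the 6 WT libraries. The strains also differed elsewhere: LYS2 and MET17, enzymes of lysine and sulfur amino acid synthesis, had at least 1250 and 1168 counts in every ups1Δ library against 0 counts in every WT library, and the alpha-specific genes were expressed in ups1Δ libraries while the a-specific genes were expressed in WT libraries. The effect of losing Ups1 and that of mating type or auxotrophic markers on the response cannot be told apart. A pair of libraries stood apart from the others of their groups: untreated ups1Δ replicate 3, with the highest level of general stress and glycogen genes and the lowest level of ribosome assembly genes of its group, and treated WT replicate 2, with the lowest a-specific and sulfate assimilation genes and the highest ER chaperones of its group. Several counts are therefore also given without both libraries.

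The response to tunicamycin was narrow in ups1Δ cells and broad in WT cells. In ups1Δ cells 1560 genes (26.8% of those tested) passed an adjusted p of 0.05, 849 (14.6%) up and 711 (12.2%) down, by edgeR's quasi-likelihood test with Benjamini-Hochberg adjustment over all genes. In WT cells 4521 genes (77.6%) passed, 2373 (40.7%) up and 2148 (36.9%) down. With library size alone as the scale the split was 1461 up and 391 down in ups1Δ cells and 3541 up and 1248 down in WT cells. The sizes differed as well, with a median absolute log2 fold change of 0.208 in ups1Δ cells and 0.698 in WT cells, and 218 called genes changed at least 2-fold in ups1Δ cells against 2032 in WT cells. Without treated ups1Δ replicate 2, 895 genes passed in ups1Δ cells. All treated libraries lay on one side of all untreated ones for 2661 genes (45.7%) in ups1Δ cells and for 4635 genes (79.5%) in WT cells.

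The interaction, the log2 response of ups1Δ cells minus that of WT cells, passed the same threshold for 3849 genes (66.0%). It was positive for 1917 of them (32.9%), which means that the ups1Δ response lay above the WT response, and negative for 1932 (33.2%). Scaling by TMM set this even split of 49.8% positive among those called, and library size alone gave 1221 positive and 2927 negative genes, or 29.4% positive. The median standard error (SE) of the interaction was 0.165. Across the 5828 genes both responses, which share no library, had a Pearson correlation of 0.332 and a Spearman correlation of 0.229, given as a description since genes are not replicates. These are values of whole cultures, in which fewer responding cells and less RNA per cell cannot be told apart.

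Each gene was placed in a class by the tests of its ups1Δ response, its WT response and the interaction. A lost response passed in WT cells and in the interaction but not in ups1Δ cells, and this class held 2651 genes (45.5%), of which 1372 rose and 1279 fell in WT cells. A weakened response passed in both strains with the same sign but was smaller in ups1Δ cells, as in 524 genes (8.99%). A reversed response passed in both with opposite signs, as in 417 genes (7.16%), of which 179 fell in ups1Δ and rose in WT cells and 238 rose in ups1Δ and fell in WT cells. Gained responses passed in ups1Δ cells and in the interaction but not in WT cells (160 genes, 2.75%), and strengthened responses passed in both with the same sign and were larger in ups1Δ cells (22 genes, 0.377%). A further 332 genes (5.70%) kept their response, with the same sign in both strains and no called interaction. With library size alone as the scale 1835 of the 2651 lost (69.2%), 373 of the 524 weakened (71.2%), 245 of the 417 reversed (58.8%), 113 of the 332 kept (34.0%), 5 of the 22 strengthened (22.7%) and 21 of the 160 gained genes (13.1%) stayed in their class. Without both libraries that stood apart 755 genes were weakened and 36 strengthened, and 89 of the 160 gained genes stayed gained. Leaving out treated ups1Δ replicate 2 gave 277 weakened, 244 reversed, 96 gained and 212 kept genes. Leaving out ups1Δ replicate 1, ups1Δ replicate 2 or treated ups1Δ replicate 1 gave 318, 327 or 349 weakened genes, the last also 265 reversed genes. Strengthened genes numbered 14 without WT replicate 1 and 35 without treated WT replicate 2. A lost call says that the ups1Δ response missed the threshold, not that it was absent. Likewise a kept call says that the interaction missed the threshold, not that both responses were equal.

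**Figure D1:**
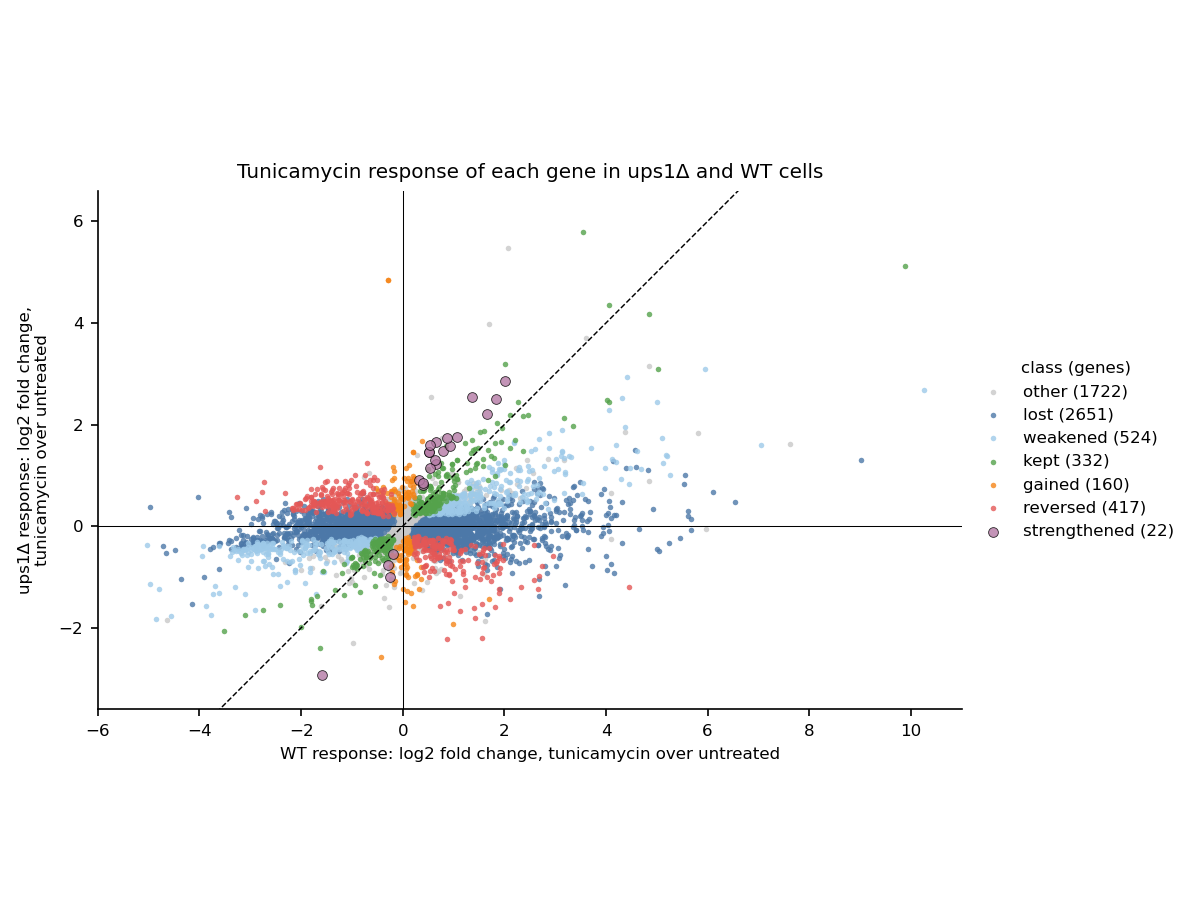
Each point is 1 of the 5828 genes tested, with the WT log2 fold change (tunicamycin over untreated) on the x axis and the ups1Δ log2 fold change on the y axis, coloured by response class. Most points lie along the horizontal axis, where WT cells responded and ups1Δ cells did not pass the test, and the 22 strengthened genes lie on the far side of the dashed line of equal response.

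The ER folding machinery was the group whose response was larger in ups1Δ cells. Of the 7 members of the ER Hsp70 cycle (the lumenal chaperone Kar2, its co-chaperones and exchange factors), 5 were strengthened, SEC63 was reversed and JEM1 was kept, against 0.377% strengthened among all genes. The members' median response was 1.70 in ups1Δ and 1.06 in WT cells on the log2 scale. The untreated levels of these genes were lower in ups1Δ than in WT cells by a median of −0.428 on the log2 scale, while the treated levels differed by a median of 0.075.

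KAR2, the ER Hsp70, is given with its promoter because both KAR2 and LHS1, an Hsp70-like exchange factor for Kar2, hold the CAGCGTG core of the UPR element UPRE-1, to which Hac1 binds. The stretches below are 30 bases of RefSeq's R64 genome (sacCer3), with the core or its reverse complement in capitals. In KAR2 (chrX:381156-381185, plus strand) 153 bases lie between the core and the start codon, and in LHS1 (chrXI:296320-296349, plus strand) 92 bases do, with the core on the other strand.
KAR2: gaggaactggaCAGCGTGtcgaaaaagttg
LHS1: ataatatcgaaCACGCTGttataaaagtga
Among 5646 promoters, taken as the 250 bases before the start codon and searched on both strands, 1.01% held this core. KAR2 and LHS1 were the only ones of the 7 ER Hsp70 cycle genes to hold it there.

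KAR2 had 3150, 3720 and 3710 CPM (counts relative to a library's TMM-scaled total, on the usual scale) in treated ups1Δ libraries, against 483, 500 and 466 CPM in untreated ups1Δ libraries. In WT cells it had 3220, 5200 and 2750 CPM with treatment and 883, 920 and 946 CPM without. The treated libraries of both strains overlapped, whereas every untreated ups1Δ library lay below every untreated WT library. The response was 7.29-fold in ups1Δ and 4.06-fold in WT cells, an interaction of 0.84 ± 0.25 (log2, SE, edgeR adjusted p = 0.00965).

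LHS1 had 301, 339 and 354 CPM in treated against 94.7, 106 and 94.5 CPM in untreated ups1Δ libraries, and 294, 378 and 264 CPM in treated against 160, 140 and 148 CPM in untreated WT libraries, an interaction of 0.69 ± 0.17 (SE, edgeR adjusted p = 0.0026). Here too the untreated libraries of the strains did not overlap and the treated ones did. SEC63, the J-domain partner of Kar2 at the translocon, rose 1.40-fold in ups1Δ cells and fell 1.51-fold in WT cells. JEM1, another J-domain co-chaperone, rose 3.25-fold in ups1Δ and 2.59-fold in WT cells, and its interaction of 0.33 missed the threshold (edgeR adjusted p = 0.104) but passed without treated WT replicate 2 (0.45, adjusted p = 0.0182).

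The 8 ER oxidoreductases and prolyl isomerases held 3 strengthened and 3 kept members, or 5 and 1 without treated WT replicate 2 or without both libraries that stood apart. PDI1, the disulfide isomerase, rose 2.78-fold in ups1Δ and 1.73-fold in WT cells, and ERO1, which supplies Pdi1 with oxidising equivalents, rose 5.69-fold in ups1Δ and 3.58-fold in WT cells. EUG1, a Pdi1 relative, rose 2.33-fold in ups1Δ and 1.58-fold in WT cells. Their interactions of 0.68, 0.67 and 0.56 passed the test (edgeR adjusted p = 0.00916, 0.0116 and 0.00594). HAC1 itself had 661, 679 and 724 CPM in treated and 218, 213 and 224 CPM in untreated ups1Δ libraries, against 989, 1060 and 877 CPM in treated and 240, 243 and 281 CPM in untreated WT libraries. Its total mRNA, spliced and unspliced together, therefore lay lower in every treated ups1Δ library than in every treated WT library, and its interaction was −0.27 ± 0.14 (SE, edgeR adjusted p = 0.0925).

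The ER calls depended on how libraries were scaled. With library size alone as the scale, the median interaction of all genes moved to −0.420 from −0.0345 with TMM, and the interactions of KAR2, LHS1, PDI1, ERO1 and EUG1 were 0.46, 0.30, 0.30, 0.28 and 0.17 with edgeR adjusted p of 0.116 to 0.323, so that 0 members of the Hsp70 cycle and 0 of the oxidoreductases and isomerases were strengthened. HAC1 passed at −0.66 (adjusted p = 6.03e-04) and also passed without treated WT replicate 3 (−0.34, adjusted p = 0.0323). The count of strengthened members ranged from 3 to 6 when 1 library was left out, being 3 without either of WT replicates 1 and 2, treated WT replicates 1 and 3, ups1Δ replicate 1 or treated ups1Δ replicate 3.

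The other strengthened genes with the largest interactions were MCD4, INO1 and HSP30. MCD4, which adds ethanolamine phosphate to glycosylphosphatidylinositol (GPI) anchors in the ER, had 344, 417 and 420 CPM in treated against 69.5, 76.0 and 57.5 CPM in untreated ups1Δ libraries, and 286, 451 and 248 CPM in treated against 131, 126 and 125 CPM in untreated WT libraries. INO1, inositol-3-phosphate synthase and a marker of phospholipid gene control, had 58.9, 72.0 and 71.3 CPM in treated against 23.6, 18.7 and 21.7 CPM in untreated ups1Δ libraries, and 55.1, 97.7 and 47.6 CPM in treated against 37.9, 45.4 and 44.3 CPM in untreated WT libraries. As with KAR2, the treated libraries of both strains overlapped and the untreated ups1Δ libraries lay lowest for both genes. Their interactions were 1.17 (edgeR adjusted p = 0.00196) and 1.02 (adjusted p = 0.017), and that of INO1 was 0.63 (adjusted p = 0.104) with library size as the scale.

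HSP30, a plasma membrane stress protein that lowers the activity of the proton pump Pma1, was strengthened in the other direction. It had 99.8, 83.4 and 119 CPM in treated against 775, 499 and 1010 CPM in untreated ups1Δ libraries, and 67.1, 70.9 and 42.9 CPM in treated against 187, 165 and 194 CPM in untreated WT libraries. No pair of groups compared within a strain overlapped, which was a condition for naming the gene. The interaction was −1.32 ± 0.36 (SE, edgeR adjusted p = 0.00717), or −0.94 (adjusted p = 0.0613) without both libraries that stood apart.

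Much of the rest of the secretory pathway fell in WT cells and missed the threshold, or rose, in ups1Δ cells. Of 9 oligosaccharyltransferase subunits, which transfer the glycan to proteins, 6 lost a fall seen in WT cells (66.7% lost, against 45.5% of all genes). Their median response was −0.008 in ups1Δ and −0.641 in WT cells. Of 21 translocon and signal recognition genes, 18 had a positive interaction, against 32.9% of all genes. Of these 21, 11 were lost (52.4%, against 45.5%) and 4 were reversed (19.0%, against 7.16%), with medians of 0.071 in ups1Δ and −0.646 in WT cells. With library size as the scale 3 of the oligosaccharyltransferase and 7 of the translocon genes were lost and 1 translocon gene reversed. The reversed translocon genes numbered 2 without any 1 of ups1Δ replicates 2 and 3 and treated ups1Δ replicates 1, 2 and 3. OST5, an oligosaccharyltransferase subunit, had 51.9 to 64.7 CPM in treated and 60.0 to 68.2 CPM in untreated ups1Δ libraries, which overlapped, against 24.2 to 42.3 CPM in treated and 74.6 to 93.9 CPM in untreated WT libraries, which did not. SEC66, a subunit of the post-translational translocon, rose 1.38-fold in ups1Δ cells and fell 1.70-fold in WT cells.

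The enzymes that build the lipid-linked oligosaccharide, the pathway that tunicamycin blocks, were divided. Of 22, 15 had a positive interaction and 2 a negative one, against 32.9% and 33.2% of all genes. Of these 22, 9 were lost (40.9%, against 45.5% of all genes), 4 reversed (18.2%, against 7.16%) and 4 gained (18.2%, against 2.75%). Without treated WT replicate 2, 8 were reversed and 2 gained, and without both libraries that stood apart 7 and 2. Without treated ups1Δ replicate 2 both classes held 2. The reversed members numbered 2 without any 1 of the untreated WT libraries, and the gained members 2 without ups1Δ replicate 1 or 2. With library size as the scale 7 were positive, 3 lost and 2 gained. PSA1, which makes GDP-mannose, had 2210, 2260 and 2270 CPM in treated against 1780, 1820 and 1530 CPM in untreated ups1Δ libraries, and 892, 1360 and 954 CPM in treated against 2640, 2600 and 2710 CPM in untreated WT libraries, a rise of 1.31-fold in ups1Δ and a fall of 2.48-fold in WT cells. ALG13, a subunit of the enzyme that adds the next N-acetylglucosamine, went the other way, falling 1.39-fold in ups1Δ and rising 1.68-fold in WT cells. ALG7, the enzyme that tunicamycin inhibits, was chosen for mention after its values were seen: it had 77.3, 96.0 and 91.3 CPM in treated against 63.8, 63.8 and 65.6 CPM in untreated ups1Δ libraries, and 65.2, 104 and 62.3 CPM in treated against 95, 100 and 94.8 CPM in untreated WT libraries. Only its ups1Δ libraries were without overlap, and its interaction was 0.78 (edgeR adjusted p = 0.00693), or 0.40 (adjusted p = 0.123) with library size as the scale.

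Glycan-adding enzymes further along gave both signs. PMT4, a protein O-mannosyltransferase, had 269 to 285 CPM in treated and 275 to 327 CPM in untreated ups1Δ libraries and fell 3.83-fold in WT cells. KTR2, a Golgi mannosyltransferase, rose 2.75-fold in ups1Δ and 8.78-fold in WT cells, an interaction of −1.68 ± 0.14 (SE, edgeR adjusted p = 1.26e-07). Of 26 genes of the COPII coat and of cargo export from the ER, 15 were positive, or 7 with library size as the scale, and 5 were gained. Among all genes 32.9% were positive and 2.75% gained. YIP3, a small membrane protein of ER-derived vesicles, was gained at 175, 179 and 178 CPM in treated against 85.8, 81.9 and 82.5 CPM in untreated ups1Δ libraries, and 103, 190 and 95.3 CPM in treated against 154, 146 and 139 CPM in untreated WT libraries. Treated WT replicate 2, with 190 CPM, was the library that made the WT groups overlap, and the number of gained members of this list was 2 without it and 3 without any 1 of ups1Δ replicates 1 and 3 and treated ups1Δ replicates 2 and 3.

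ER-associated degradation returns misfolded proteins to the cytosol. Of its 19 genes, 10 (against 33.2% of all genes) had a negative and 2 a positive interaction, and the median response was 0.076 in ups1Δ and 0.468 in WT cells. USA1, a scaffold of the Hrd1 ubiquitin ligase, rose 1.56-fold in ups1Δ and 2.69-fold in WT cells. SSM4, the other ER ubiquitin ligase, was positive instead, with 225 to 244 CPM in treated against 211 to 226 CPM in untreated ups1Δ libraries and a fall of 1.56-fold in WT cells.

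**Figure D2:**
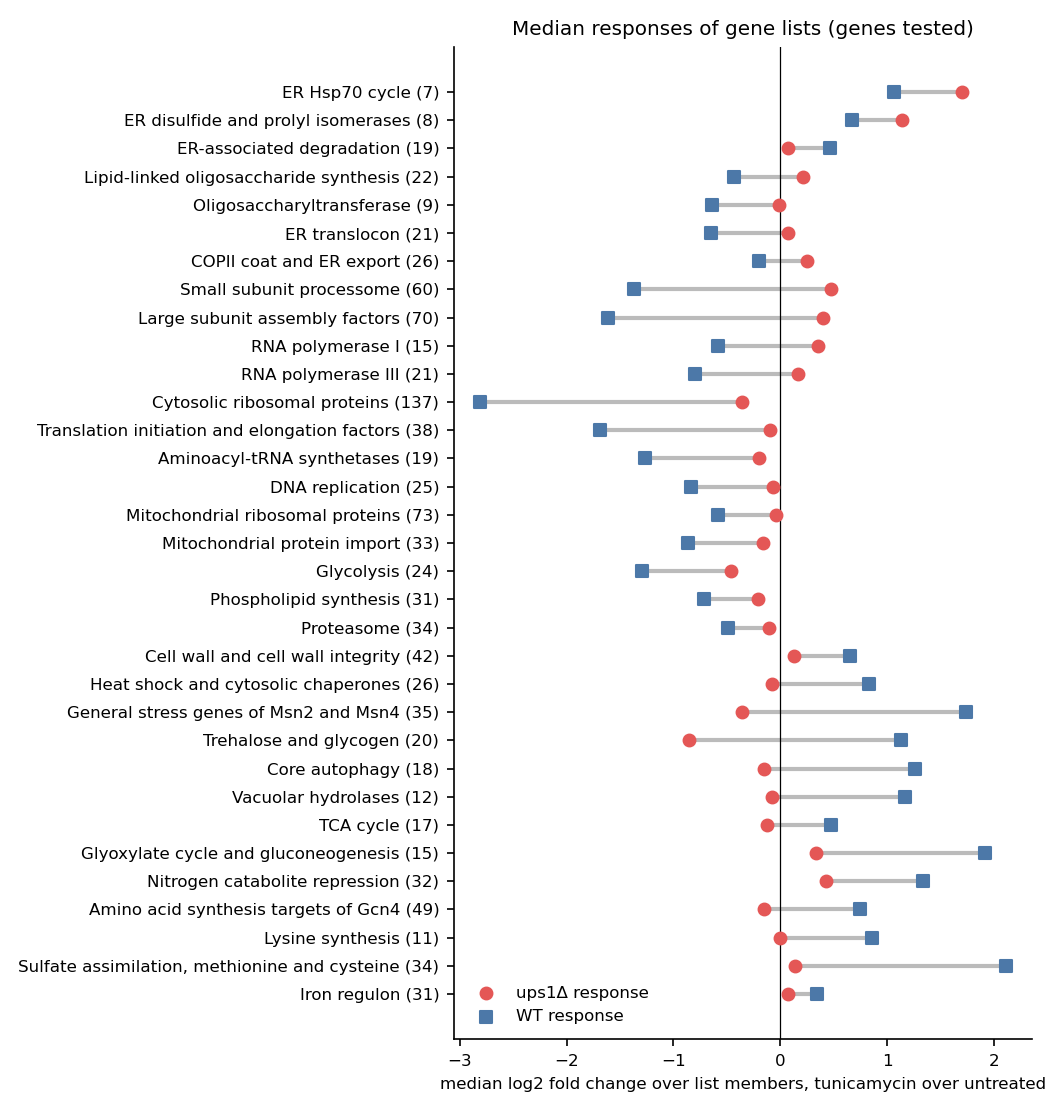
Median log2 fold change (tunicamycin over untreated, x axis) over the members of 33 gene lists, with ups1Δ as circles and WT as squares and the number of genes tested in brackets. The circles of most lists lie near 0 while the squares spread to both sides, the ER Hsp70 cycle has its circle at 1.70 beyond its square at 1.06, and the processome and trehalose lists have their circle and square on opposite sides of 0.

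The assembly of ribosomes was the largest function that reversed at the 0.05 threshold. All 60 genes of the small subunit processome (the complex that cuts and folds the precursor of 18S rRNA) had a positive interaction, with a median of 1.87, against 32.9% positive among all genes. Of these, 44 rose in ups1Δ and fell in WT cells (73.3% reversed, against 7.16% of all genes) and 16 were lost (26.7%, against 45.5%). The median response was 0.472 in ups1Δ and −1.37 in WT cells. All 70 assembly factors of the large subunit were positive too, with a median of 2.04. Of these 70, 45 were reversed (64.3%, against 7.16%), 24 lost (34.3%, against 45.5%) and 1 gained. Their median responses were 0.404 in ups1Δ and −1.61 in WT cells. The untreated levels were lower in ups1Δ than in WT cells, by medians of −0.587 and −0.608, and the treated levels were higher, by 1.32 and 1.42.

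DBP2, an RNA helicase used in ribosome assembly, had the largest interaction among reversed genes that rose in ups1Δ cells. It had 872, 863 and 792 CPM in treated against 632, 655 and 411 CPM in untreated ups1Δ libraries. In WT cells it had 111, 112 and 142 CPM with treatment against 1180, 1190 and 1160 CPM without. No groups overlapped within a strain, which was a condition for naming the gene. The interaction was 3.84 ± 0.22 (SE, edgeR adjusted p = 1.97e-08).

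The members with the largest interactions showed mainly the WT fall. SNU13, a protein of the U3 and spliceosomal particles, had 201, 189 and 226 CPM in treated and 208, 215 and 174 CPM in untreated ups1Δ libraries, which overlapped, against 33.9, 45.1 and 42.4 CPM in treated and 324, 336 and 300 CPM in untreated WT libraries. NOP1, the rRNA 2′-O-methyltransferase fibrillarin, fell 5.89-fold in WT cells and NOP58, its partner in box C/D particles, fell 5.43-fold. Both were lost in ups1Δ cells, where untreated replicate 3 had the lowest NOP1 and NOP58 values of its group, 595 and 357 CPM. HAS1, a helicase of both subunits' assembly, rose 1.23-fold in ups1Δ cells (edgeR adjusted p = 0.0487) and fell 6.51-fold in WT cells. ALB1, a shuttling factor of the large subunit, was lost, with a fall of 6.96-fold in WT cells.

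These genes are known to share a pair of promoter elements, PAC (GATGAG, bound by the repressors Dot6 and Tod6) and RRPE (AAAATTT, bound by Stb3), which are therefore shown for the leading members, 30 bases each with the motif or its reverse complement in capitals. The SNU13, NOP58 and NOP1 stretches (chrV:101738-101767, plus; chrXV:898465-898494, minus; chrIV:427148-427177, plus) show PAC, and those of DBP2, ALB1 and HAS1 (chrXIV:413484-413513, plus; chrX:189605-189634, plus; chrXIII:851738-851767, minus) show RRPE, all from RefSeq R64 and on the gene's own strand.
SNU13: atgctggaatgaGATGAGttagaaaatttt
NOP58: aaatttttcaacCTCATCgaaaattttcag
NOP1: caaattggaaagCTCATCtctcttgaatgt
DBP2: ctcatcgcagaAAATTTTtccttcagttta
ALB1: ttttttcgctaAAATTTTcatagagagtat
HAS1: acccgaattgaAAATTTTttatttgctttt
PAC was in 53 of 60 processome promoters (88.3%) and RRPE in 68 of 70 promoters of large subunit factors (97.1%), against 17.1% and 22.2% of all promoters. Ribosomal protein genes, which are controlled by other factors, held PAC in 10.2% and RRPE in 27.0% of 137 promoters. Within the genes that fell in WT cells, the reversed ones held PAC in 161 of 238 promoters (67.6%) and the lost ones in 259 of 1243 (20.8%), a difference given as a description. TOD6, named after its values were seen, was gained: it had 179, 179 and 146 CPM in treated against 80.1, 84.9 and 61.5 CPM in untreated ups1Δ libraries, and 100, 74.4 and 99.0 CPM in treated against 102, 106 and 105 CPM in untreated WT libraries, an interaction of 1.35 (edgeR adjusted p = 2.60e-05).

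The class of the assembly genes depended in part on the threshold and on single libraries. At an edgeR adjusted p under 0.01, 29 processome genes were reversed and 31 lost, and 26 large subunit factors were reversed and 42 lost. Without untreated ups1Δ replicate 3, 39 processome genes were reversed and 21 lost, and 34 large subunit factors were reversed and 35 lost. All 60 and all 70 stayed positive in both settings. Without treated ups1Δ replicate 1 or replicate 2, lost members numbered 25 or 29 in the processome and 38 or 39 among large subunit factors, and without both libraries that stood apart 42 and 41 members were reversed.

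Most ribosomal protein and translation factor genes lost or weakened a fall seen in WT cells. Of 137 cytosolic ribosomal protein genes, 136 had a positive interaction, with a median of 2.45, and the median response was −0.363 in ups1Δ and −2.81 in WT cells. RPL9A, a protein of the large subunit, had 657, 590 and 659 CPM in treated against 1020, 987 and 859 CPM in untreated ups1Δ libraries, and 98.0, 121 and 139 CPM in treated against 2030, 1770 and 1730 CPM in untreated WT libraries. Its groups did not overlap in either strain, the response was a fall of 1.51-fold in ups1Δ and 15.4-fold in WT cells, and the interaction was 3.36 ± 0.18 (SE, edgeR adjusted p = 1.44e-08). RPL9A and other paralogous pairs share sequence, so that the split of counts within a pair is uncertain.

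The list was divided into 60 lost (43.8%, against 45.5% of all genes) and 76 weakened members (55.5%, against 8.99%). This split moved with single libraries: 110, 106, 101 and 119 were lost without ups1Δ replicate 1, ups1Δ replicate 2, treated ups1Δ replicate 1 or treated ups1Δ replicate 2. Lost members numbered 38 without treated WT replicate 1 or ups1Δ replicate 3, and 28 without both libraries that stood apart. Of 38 translation initiation and elongation factors 37 were positive and 33 lost (86.8%, against 45.5% of all genes). GCD2, a subunit of the exchange factor eIF2B, was reversed. HEF3, a translation elongation factor 3, was weakened, and its interaction was negative. Both are named after their values were seen. Of 19 aminoacyl-tRNA synthetases 18 were positive and 15 lost, or 8 without both libraries that stood apart. TEF4, a subunit of elongation factor 1B, had 949, 871 and 949 CPM in treated against 1240, 1310 and 1000 CPM in untreated ups1Δ libraries, and 190, 269 and 230 CPM in treated against 1920, 2170 and 2160 CPM in untreated WT libraries. SES1, the seryl-tRNA synthetase, fell 5.90-fold in WT cells.

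RNA polymerases I and III, which make rRNA and tRNA, followed with 12 of 15 and 14 of 21 positive, against 32.9% of all genes. RPA34, a polymerase I subunit, had 131, 134 and 127 CPM in treated and 125, 130 and 83.8 CPM in untreated ups1Δ libraries, against 27.5, 36.0 and 40.1 CPM in treated and 269, 220 and 216 CPM in untreated WT libraries. The ups1Δ groups overlapped and the interaction was 2.98 (edgeR adjusted p = 1.96e-07). SCH9, the kinase that carries signals of the TORC1 complex to ribosome production, had 173, 181 and 163 CPM in treated against 125, 139 and 149 CPM in untreated ups1Δ libraries, and 147, 134 and 125 CPM in treated against 165, 164 and 177 CPM in untreated WT libraries. It was reversed, with a change of 1.25-fold in each direction, but its interaction was 0.25 (edgeR adjusted p = 0.0806) with library size as the scale.

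Genes of growth and division also kept their untreated level more closely in ups1Δ cells. Of 25 DNA replication genes, 23 were positive and 21 lost (84.0%, against 45.5% of all genes). Their median response was −0.070 in ups1Δ and −0.836 in WT cells. RNR1, the large subunit of ribonucleotide reductase, had 326, 279 and 301 CPM in treated and 368, 365 and 218 CPM in untreated ups1Δ libraries, which overlapped, against 34.8, 72.8 and 47.3 CPM in treated and 463, 504 and 478 CPM in untreated WT libraries. POL30, the sliding clamp PCNA, fell 7.08-fold in WT cells, and CLB2, a mitotic cyclin, fell 4.07-fold.

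The MCB element (ACGCGT), bound by the G1/S factor MBF, stood in 12 of 25 replication promoters (48.0%) against 2.98% of all promoters. It is shown for POL30 (chrII:425944-425973, minus) and for CDC21 (chrXV:467693-467722, minus), which encodes thymidylate synthase and fell 4.38-fold in WT cells, as both were lost in ups1Δ cells.
POL30: ccaaaacgcgaaACGCGTaacttttttttt
CDC21: agaccttaattgACGCGTttcctgaaatat
Mitochondrial ribosomal proteins (50 of 73 positive, 49 lost) and mitochondrial protein import (23 of 33 positive, 20 lost) had median responses of −0.037 and −0.161 in ups1Δ cells, against −0.586 and −0.860 in WT cells. Their lost shares were 67.1% and 60.6%, against 45.5% of all genes. MGE1, the exchange factor of mitochondrial Hsp70, fell 3.29-fold in WT cells and TOM6, an outer membrane import subunit, 3.39-fold. With library size as the scale, 23 mitochondrial ribosomal proteins and 14 replication genes were positive.

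General stress genes mostly rose in WT cells, and that rise was mostly lost, reversed or weakened in ups1Δ cells. Of 35 genes listed for the Msn2 and Msn4 program, MSN2 itself among them, 32 had a negative and none a positive interaction, against 33.2% negative among all genes. Of these 35, 17 were lost (48.6%, against 45.5% of all genes), 8 reversed (22.9%, against 7.16%) and 5 weakened (14.3%, against 8.99%). The median response was −0.358 in ups1Δ and 1.74 in WT cells. Before treatment these genes stood higher in ups1Δ than in WT cells by a median of 1.06, and after treatment lower by −1.44. Without both libraries that stood apart 31 were negative, and reversed members numbered 5 without treated ups1Δ replicate 1 or 3 and 12 without ups1Δ replicate 2.

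DDR2, a stress protein of unknown function, had 54.7, 55.9 and 39.4 CPM in treated and 44.6, 36.3 and 132 CPM in untreated ups1Δ libraries, against 576, 260 and 345 CPM in treated and 14.8, 11.1 and 10 CPM in untreated WT libraries. The ups1Δ groups overlapped, the untreated replicate 3 being highest, and the interaction was −5.53 ± 0.75 (SE, edgeR adjusted p = 1.20e-04). DCS2, a relative of the decapping scavenger enzyme Dcs1, had 46.3, 47.4 and 45.3 CPM in treated against 92.2, 67.7 and 169 CPM in untreated ups1Δ libraries, and 176, 149 and 137 CPM in treated against 28.8, 18.8 and 25.5 CPM in untreated WT libraries. Its groups were apart in both strains, which was a condition for naming it. The direction was reversed, with an interaction of −3.90 (adjusted p = 1.92e-05).

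NQM1, a transaldolase paralogue of the stress program, was weakened: it had 66.7, 79.8 and 59.6 CPM in treated against 33.2, 27.4 and 42.2 CPM in untreated ups1Δ libraries, and 257, 214 and 193 CPM in treated against 5.54, 5.33 and 6.41 CPM in untreated WT libraries. FMP16, a mitochondrial protein of unknown function, was reversed at 11.2, 19.6 and 12.4 CPM in treated against 29.3, 20 and 51.9 CPM in untreated ups1Δ libraries, and 249, 142 and 170 CPM in treated against 10.9, 6.49 and 8.02 CPM in untreated WT libraries. The fall of FMP16 in ups1Δ cells had an edgeR adjusted p of 0.0475, and the 2 groups came within 1 CPM of each other. MSN2 and MSN4 themselves had interactions of −0.12 and −0.67 that missed the threshold (edgeR adjusted p = 0.44 and 0.122), though MSN4 passed without treated WT replicate 2 (adjusted p = 0.0495) and both passed with library size as the scale.

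The stress element STRE (AGGGG), the site of Msn2 and Msn4, is shown for these genes on their own strands (DDR2, chrXV:231913-231942, minus; NQM1, chrVII:581584-581613, minus; DCS2, chrXV:657104-657133, plus).
DDR2: tgtcttttctcaCCCCTtatgggacatcaa
NQM1: taggggcgaatgAGGGGagcatagtggatc
DCS2: aggggggaaataAGGGGtgacaataccaat
It was in 25 of the 35 promoters (71.4%) against 18.9% of all promoters. By class, it was in 83 of 177 promoters (46.9%) of genes that fell in ups1Δ and rose in WT cells, in 31 of 73 (42.5%) of genes that fell in ups1Δ cells alone, and in 373 of 1345 (27.7%) of genes whose rise was lost.

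Storage carbohydrate genes reversed most often among the stress functions. Of 20 genes of trehalose and glycogen metabolism, 18 were negative, 11 reversed (55.0%, against 7.16% of all genes), 6 lost (30.0%, against 45.5%) and 2 gained. The median response was −0.857 in ups1Δ and 1.13 in WT cells. GPH1, glycogen phosphorylase, had 44.9, 48.8 and 36.9 CPM in treated against 151, 94.7 and 357 CPM in untreated ups1Δ libraries, and 336, 193 and 248 CPM in treated against 93.7, 71.9 and 96.8 CPM in untreated WT libraries. GSY2, the main glycogen synthase, had 153, 168 and 151 CPM in treated against 376, 266 and 779 CPM in untreated ups1Δ libraries, and 629, 595 and 583 CPM in treated against 180, 143 and 190 CPM in untreated WT libraries. The groups of both genes were apart in both strains, which for GPH1 was a condition for naming it. The interactions were −3.77 and −3.41 (edgeR adjusted p = 4.64e-04 and 8.25e-05). Untreated ups1Δ replicate 3 was the highest of its group for each, and without it and treated WT replicate 2 11 members of the list were reversed, while 7 were reversed without treated ups1Δ replicate 1 or replicate 2.

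The gained genes with the largest interactions, GSY1, NCE102, YRO2 and SAP4, fell in ups1Δ cells. GSY1, the second glycogen synthase, had 77.7, 92.6 and 67.8 CPM in treated against 196, 118 and 591 CPM in untreated ups1Δ libraries, and 251, 249 and 244 CPM in treated against 134, 102 and 136 CPM in untreated WT libraries, where its rise had an edgeR adjusted p of 0.0837 although the WT groups did not overlap. NCE102, an eisosome protein that senses sphingolipids, had 308, 279 and 261 CPM in treated against 709, 644 and 1020 CPM in untreated ups1Δ libraries, and 697, 393 and 557 CPM in treated against 549, 477 and 565 CPM in untreated WT libraries, which overlapped. YRO2, a plasma membrane protein related to HSP30, had 278, 238 and 252 CPM in treated against 720, 687 and 879 CPM in untreated ups1Δ libraries, and 503, 153 and 287 CPM in treated against 281, 248 and 289 CPM in untreated WT libraries.

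SAP4, an associated factor of the Sit4 phosphatase, had 17.4, 16.5 and 24.3 CPM in treated against 40.0, 44.9 and 50.5 CPM in untreated ups1Δ libraries, and 32.5, 31.4 and 39.2 CPM in treated against 28.6, 26.9 and 26.7 CPM in untreated WT libraries. As with GSY1, its WT groups did not overlap, and its WT rise just missed the threshold (edgeR adjusted p = 0.0557). In all 4 of these genes the untreated ups1Δ level was the highest of the group means. Their ups1Δ libraries did not overlap, which was a condition for naming them. PDR15, an ABC transporter of the pleiotropic drug response, was gained in the same direction, at 633, 589 and 634 CPM in treated against 1080, 1040 and 1710 CPM in untreated ups1Δ libraries, and 159, 136 and 137 CPM in treated against 105, 110 and 123 CPM in untreated WT libraries. The WT groups of PDR15 did not overlap either, although its WT rise missed the threshold. Without untreated ups1Δ replicate 3, 110 genes were called gained in place of 160.

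Of 18 core autophagy genes 4 rose and 2 fell in ups1Δ cells, while 15 rose in WT cells. The interaction was negative for 14 of them, against 33.2% of all genes, and positive for none. Lost members numbered 10 (55.6%, against 45.5% of all genes). Of 12 vacuolar hydrolases and their regulators 3 rose and 3 fell in ups1Δ cells, while 11 rose in WT cells. Of these 12, 11 were negative, with 6 lost and 2 reversed. ATG8, the ubiquitin-like protein of autophagosomes, had 34.3, 35.1 and 28.9 CPM in treated and 33.9, 30.0 and 46.8 CPM in untreated ups1Δ libraries, which overlapped, against 67.1, 71.9 and 57.9 CPM in treated and 15.3, 13.4 and 21.2 CPM in untreated WT libraries. AMS1, vacuolar α-mannosidase, rose 2.22-fold in ups1Δ and 22.2-fold in WT cells, and PRB1, a vacuolar protease, rose 2.13-fold in ups1Δ and 7.86-fold in WT cells. Heat shock genes and cytosolic chaperones were mostly negative as well, 18 of 26, against 33.2% of all genes. Among them was HSP26, a small heat shock protein, with rises of 3.04-fold in ups1Δ and 18.3-fold in WT cells. YDJ1, a cytosolic Hsp40, was one of 5 positive members, with a fall of 1.98-fold in WT cells.

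**Figure D3:**
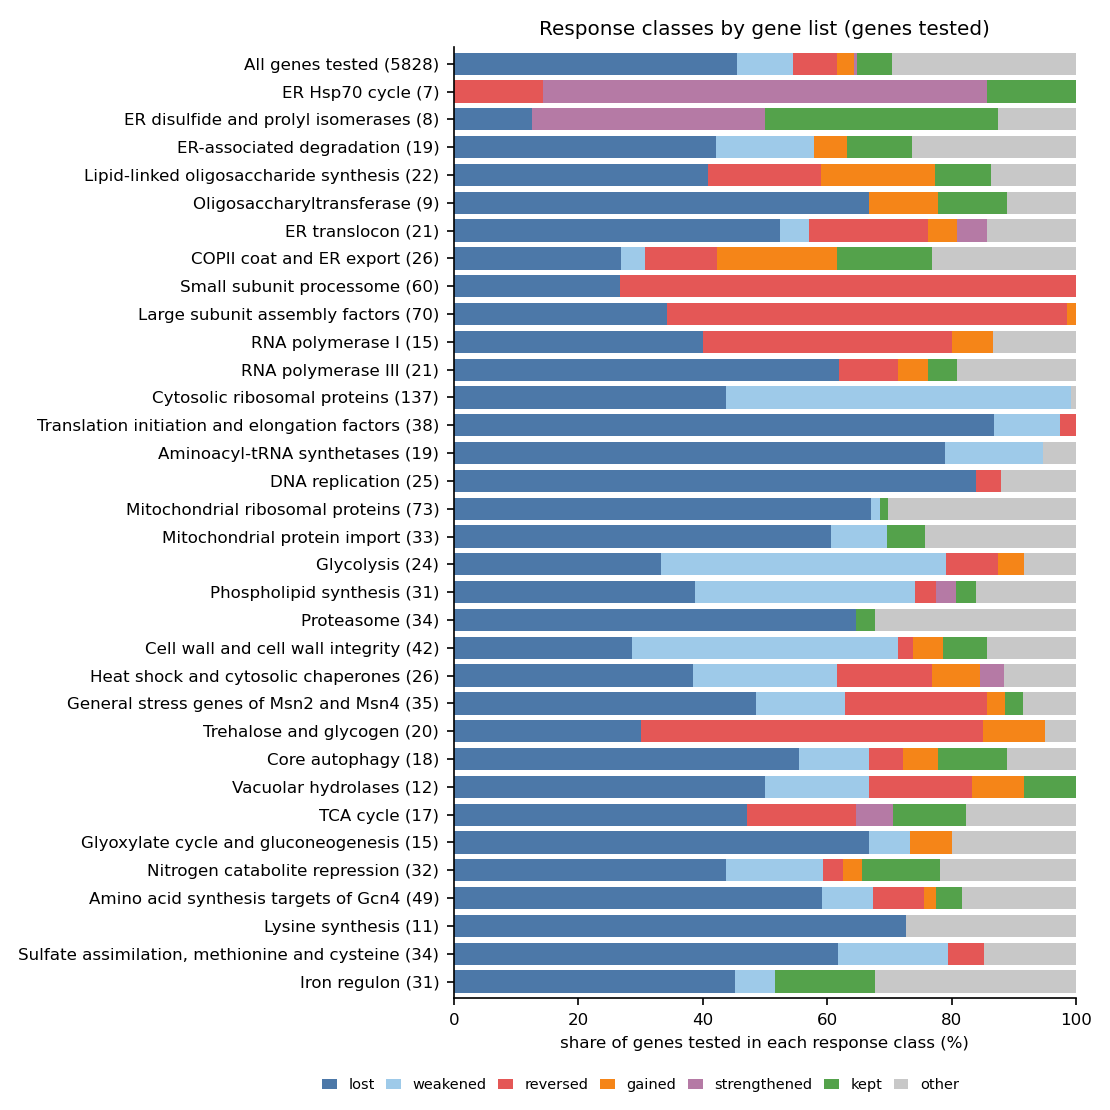
Share of the genes tested (x axis, percent) in each response class for all 5828 genes and for 33 gene lists, with the number of genes in brackets. Red (reversed) fills most of the bars of the processome, the large subunit factors and trehalose and glycogen, purple (strengthened) fills 5 of 7 genes of the ER Hsp70 cycle, and dark blue (lost) is the widest share of most other bars and of all genes (45.5%).

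In carbon metabolism, most genes of fermentation fell and most genes of the glyoxylate cycle rose in WT cells, and fewer of them passed in ups1Δ cells. Of 24 genes of glycolysis and fermentation, 15 were positive and 8 negative, against 32.9% and 33.2% of all genes. The median response was −0.459 in ups1Δ and −1.30 in WT cells. Of the 24, 11 were weakened (45.8%, against 8.99%) and 8 lost (33.3%, against 45.5%), or 7 and 14 without treated ups1Δ replicate 2. ADH1, the fermentative alcohol dehydrogenase, had 9230, 7930 and 8790 CPM in treated against 13400, 13900 and 14300 CPM in untreated ups1Δ libraries, and 1510, 2090 and 1390 CPM in treated against 10600, 11400 and 11700 CPM in untreated WT libraries. HXK2, the main hexokinase on glucose, had 2220 to 2390 CPM in treated and 2260 to 2400 CPM in untreated ups1Δ libraries, which overlapped, and fell 4.03-fold in WT cells.

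On the other side, 11 of 15 genes of the glyoxylate cycle and gluconeogenesis and 12 of 17 genes of the TCA cycle were negative. Among all genes 33.2% were. Several of the glyoxylate genes had low counts, and 5 were negative among those with at least 10 counts in every library. HXT5, a hexose transporter made in slow growth, had 63.1, 62.1 and 37.1 CPM in treated against 13.0, 11.3 and 29.3 CPM in untreated ups1Δ libraries, and 323, 184 and 166 CPM in treated against 1.55, 2.32 and 1.20 CPM in untreated WT libraries. The untreated levels alone were 10.6-fold higher in ups1Δ than in WT cells. The interaction was −5.45 ± 0.76 (SE, edgeR adjusted p = 1.22e-04).

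Of 49 amino acid synthesis genes controlled by Gcn4, 2 rose and 9 fell in ups1Δ cells, against 27 that rose and 14 that fell in WT cells. Of the 49, 29 were negative (against 33.2% of all genes), 10 positive, 29 lost (59.2%, against 45.5%) and 4 reversed. Without both libraries that stood apart 19 were lost and 11 reversed, and without treated WT replicate 2 9 were reversed. The median response was −0.148 in ups1Δ and 0.744 in WT cells. ARG5,6, which encodes 2 enzymes of ornithine synthesis and is listed here as ARG56, had 328, 297 and 428 CPM in treated and 285, 262 and 199 CPM in untreated ups1Δ libraries, against 1640, 978 and 1900 CPM in treated and 118, 120 and 124 CPM in untreated WT libraries. Although its ups1Δ libraries did not overlap, the ups1Δ response missed the threshold (edgeR adjusted p = 0.116), and the interaction was −3.14 (adjusted p = 3.09e-06). ARG7, an ornithine acetyltransferase, had 237 to 305 CPM in treated and 313 to 339 CPM in untreated ups1Δ libraries and rose 6.70-fold in WT cells.

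The Gcn4 site TGACTCA is shown for both genes (ARG56, chrV:295176-295205, plus; ARG7, chrXIII:396513-396542, minus), as it was in 19 of the 49 promoters (38.8%) against 2.25% of all promoters.
ARG56: tcttatccgaaTGACTCAgtctacatcaaa
ARG7: gacaggtaggaTGACTCActgcgtaattcg
Of 11 lysine synthesis genes, 9 were negative, against 33.2% of all genes, and none was positive. LYS1, saccharopine dehydrogenase, had 94.0, 97.2 and 119 CPM in treated against 138, 139 and 123 CPM in untreated ups1Δ libraries, and 413, 296 and 470 CPM in treated against 62.0, 64.7 and 58.7 CPM in untreated WT libraries. WT cells had no LYS2 counts, so that LYS2 itself has no WT response to compare. Whether the lysine genes' response follows Ups1 or LYS2 cannot be told apart.

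Sulfate assimilation and the synthesis of methionine and cysteine held the largest median among the lists that rose in WT cells. Of 34 genes, 5 rose and 4 fell in ups1Δ cells, against 25 that rose and 7 that fell in WT cells. Of the 34, 24 were negative (against 33.2% of all genes), 5 positive and 21 lost (61.8%, against 45.5%). The median response was 0.137 in ups1Δ and 2.11 in WT cells. STR3, a cystathionine β-lyase, had 17.8, 16.9 and 19.0 CPM in treated against 16.2, 15.6 and 14.9 CPM in untreated ups1Δ libraries, and 905, 546 and 952 CPM in treated against 14.4, 17.9 and 16.6 CPM in untreated WT libraries. The interaction of STR3 was −5.42 ± 0.30 (SE, edgeR adjusted p = 2.33e-08), and 3 of the 4 groups lay within 5 CPM of each other.

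MET28, a regulator of the sulfur genes, had 10.4, 8.71 and 9.48 CPM in treated and 5.49, 4.34 and 12.7 CPM in untreated ups1Δ libraries, against 151, 79.3 and 161 CPM in treated and 2.66, 5.80 and 4.41 CPM in untreated WT libraries. SUL1, a sulfate transporter, had 27.6, 10.7 and 21.9 CPM in treated WT libraries and at most 0.927 CPM in every other library, so that its fitted interaction of −5.58 ± 1.35 (SE, edgeR adjusted p = 0.00235) rests on few counts. Enzymes of the methyl cycle and of cysteine synthesis went the other way: SAH1, adenosylhomocysteinase, fell 1.47-fold in ups1Δ and 7.95-fold in WT cells, and CYS4, cystathionine β-synthase, fell 2.37-fold in WT cells. MET17, the sulfhydrylase that joins sulfide to the carbon chain, had no counts in WT cells and so has no WT response to compare. The part of this difference in the sulfur genes' response cannot be told apart from that of Ups1.

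The site of Cbf1 (TCACGTG), which recruits Met28 and Met4 to sulfur genes, was in 9 of 34 promoters (26.5%) against 2% of all promoters, and is shown for MET28 (chrIX:384320-384349, minus) as its leading member here.
MET28: ggtactgagtgCACGTGActtatttttttt
Among genes of poor nitrogen sources, 20 of 32 were negative, against 33.2% of all genes, with medians of 0.432 in ups1Δ and 1.33 in WT cells. GDH2, the glutamate dehydrogenase that releases ammonia, had 147, 163 and 149 CPM in treated and 159, 135 and 177 CPM in untreated ups1Δ libraries, against 367, 313 and 315 CPM in treated and 85.7, 85.8 and 84.6 CPM in untreated WT libraries.

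The greatest sizes of interaction, among genes that reached 20 CPM in a group and had no overlap where called, were in ARO10 and ARO9. Both belong to the Ehrlich pathway, which breaks down aromatic and branched amino acids to alcohols. Of its 16 genes, 9 were negative (against 33.2% of all genes), 2 positive and 5 missed the threshold, with a median interaction of −0.554. With 1 library left out, 6 to 10 were negative. ARO9, an aromatic aminotransferase, had 9.62, 9.26 and 7.21 CPM in treated against 6.41, 5.86 and 6.56 CPM in untreated ups1Δ libraries, and 503, 340 and 631 CPM in treated against 5.98, 5.33 and 4.61 CPM in untreated WT libraries, an interaction of −6.05 ± 0.44 (SE, edgeR adjusted p = 1.84e-07). ARO10, the phenylpyruvate decarboxylase, had 6.01, 9.26 and 5.98 CPM in treated against 1.83, 0.651 and 0.875 CPM in untreated ups1Δ libraries, and 719, 610 and 888 CPM in treated against 0.664, 0.927 and 0.200 CPM in untreated WT libraries. In both genes the treated WT libraries lay far above all others. The untreated values of ARO10 are at or near the 0.415 to 0.696 CPM that 3 counts are worth, so that its interaction of −7.57 (edgeR adjusted p = 5.41e-06) depends on few counts. SNO1, of vitamin B6 synthesis, had 9.22, 9.54 and 16.7 CPM in treated and 11.9, 13.9 and 15.5 CPM in untreated ups1Δ libraries, against 31.5, 7.54 and 30.8 CPM in treated and 0.664, 0.927 and 0 CPM in untreated WT libraries, and it was lost at an interaction of −5.69.

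Of 42 cell wall genes 22 were negative and 11 positive, against 33.2% and 32.9% of all genes. Of these 42, 18 were weakened (42.9%, against 8.99% of all genes) and 12 lost (28.6%, against 45.5%). The median response was 0.126 in ups1Δ and 0.650 in WT cells. PIR3, a covalently bound wall protein, had 24.4, 20.2 and 23.5 CPM in treated and 21.5, 20 and 29.5 CPM in untreated ups1Δ libraries, which overlapped, against 1170, 295 and 585 CPM in treated and 15.9, 13.9 and 10.4 CPM in untreated WT libraries, and its interaction was −5.75 ± 0.72 (SE, edgeR adjusted p = 7.42e-05). UTR2, a chitin to glucan crosslinking enzyme, fell 1.49-fold in ups1Δ and 10.5-fold in WT cells. INA1, a SUR7-like membrane protein, had 390, 327 and 379 CPM in treated against 478, 509 and 421 CPM in untreated ups1Δ libraries, and 12.0, 10.9 and 12.3 CPM in treated against 357, 397 and 404 CPM in untreated WT libraries. Its interaction of 4.68 ± 0.15 (SE, edgeR adjusted p = 2.32e-10) set treated WT libraries far below all others. SPI1, a GPI-anchored wall protein, was reversed, falling 3.03-fold in ups1Δ and rising 2.66-fold in WT cells.

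Of 31 phospholipid genes, 1 rose and 13 fell in ups1Δ cells, against 7 that rose and 21 that fell in WT cells. Of these 31, 21 were positive (against 32.9% of all genes), 12 lost (38.7%, against 45.5%) and 11 weakened (35.5%, against 8.99%). With library size as the scale 11 were positive, 7 negative and 7 weakened. CDS1, CDP-diacylglycerol synthase, had 134, 127 and 126 CPM in treated against 176, 182 and 163 CPM in untreated ups1Δ libraries, and 32, 37.4 and 35.2 CPM in treated against 261, 267 and 269 CPM in untreated WT libraries, an interaction of 2.50 ± 0.11 (SE, edgeR adjusted p = 2.82e-09). HNM1, the choline transporter, fell 1.62-fold in ups1Δ and 6.63-fold in WT cells. ERG6, a sterol methyltransferase, had 370 to 388 CPM in treated and 319 to 408 CPM in untreated ups1Δ libraries and fell 2.87-fold in WT cells.

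The cardiolipin pathway, which Ups1 supplies, was split. CLD1, the phospholipase that starts cardiolipin remodelling, had 30.3, 34.7 and 26.2 CPM in treated against 10.5, 12.6 and 12.0 CPM in untreated ups1Δ libraries, and 119, 89.1 and 101 CPM in treated against 2.88, 3.25 and 2.21 CPM in untreated WT libraries. CRD1, cardiolipin synthase, had 26.2 to 31.7 CPM in treated and 26.3 to 31.9 CPM in untreated ups1Δ libraries and rose 2.21-fold in WT cells, and TAM41, mitochondrial CDP-diacylglycerol synthase, rose 1.87-fold in WT cells with an interaction of −0.79 (edgeR adjusted p = 6.41e-05). UPS2, the phosphatidylserine transfer protein related to Ups1, fell in both, 1.53-fold in ups1Δ and 1.25-fold in WT cells, and was kept, with an interaction of −0.29 (edgeR adjusted p = 0.0689), or −0.40 (adjusted p = 0.00651) without treated ups1Δ replicate 3 and −0.68 (adjusted p = 3.44e-04) with library size as the scale.

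Of 31 genes of iron uptake and the iron regulon, 11 were negative, near the 33.2% of all genes. Of the rest, 5 were positive, against 32.9% of all genes, and 15 missed the threshold. With library size as the scale 20 were negative and 4 positive. Their levels were higher in ups1Δ than in WT cells by a median of 1.25 untreated and 1.41 treated. SIT1, a siderophore transporter, had 735, 655 and 731 CPM in treated and 616, 651 and 742 CPM in untreated ups1Δ libraries, against 40.2, 30.2 and 45.1 CPM in treated and 172, 145 and 170 CPM in untreated WT libraries. FET3, the multicopper oxidase of iron uptake, had 1880 to 2170 CPM in treated and 2210 to 2320 CPM in untreated ups1Δ libraries and fell 2.76-fold in WT cells.

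The kept genes with the largest mean response were ULI1, THI12, YET2 and FMP48. YET2, a homologue of the human ER protein BAP31, had 29.3, 34.8 and 35.5 CPM in treated against 6.41, 7.60 and 7.88 CPM in untreated ups1Δ libraries, and 26.9, 47.2 and 32.1 CPM in treated against 7.09, 4.64 and 7.42 CPM in untreated WT libraries, with an interaction of −0.28 (95% interval −1 to 0.44). ULI1, of unknown function and linked to the UPR, had 51.3, 70.2 and 65.3 CPM in treated against 2.75, 3.04 and 3.28 CPM in untreated ups1Δ libraries, and 31.6, 130 and 29.0 CPM in treated against 4.43, 2.32 and 4.41 CPM in untreated WT libraries. The interaction of ULI1 was 0.29 (95% interval −2.45 to 3.03) with all libraries. Treated WT replicate 2 decided its class: without that library the interaction of ULI1 was 1.36 (edgeR adjusted p = 0.00331).

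FMP48, a protein kinase gene, fell 3.96-fold in ups1Δ and 4.01-fold in WT cells. THI12, of thiamine synthesis, rose 5.60-fold in ups1Δ and 16.3-fold in WT cells, but its near-identical relatives share reads with it and its value is uncertain, and its interaction passed without treated WT replicate 1, treated WT replicate 3 or ups1Δ replicate 2 (edgeR adjusted p = 0.0492, 0.00935 and 0.0451). SEC24, the cargo-binding subunit of the COPII coat, rose 1.47-fold in ups1Δ and 1.72-fold in WT cells and was kept, though its interaction passed at −0.31 (adjusted p = 0.0443) without treated WT replicate 3 and at −0.61 (adjusted p = 0.00127) with library size as the scale.

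**Figure D4:**
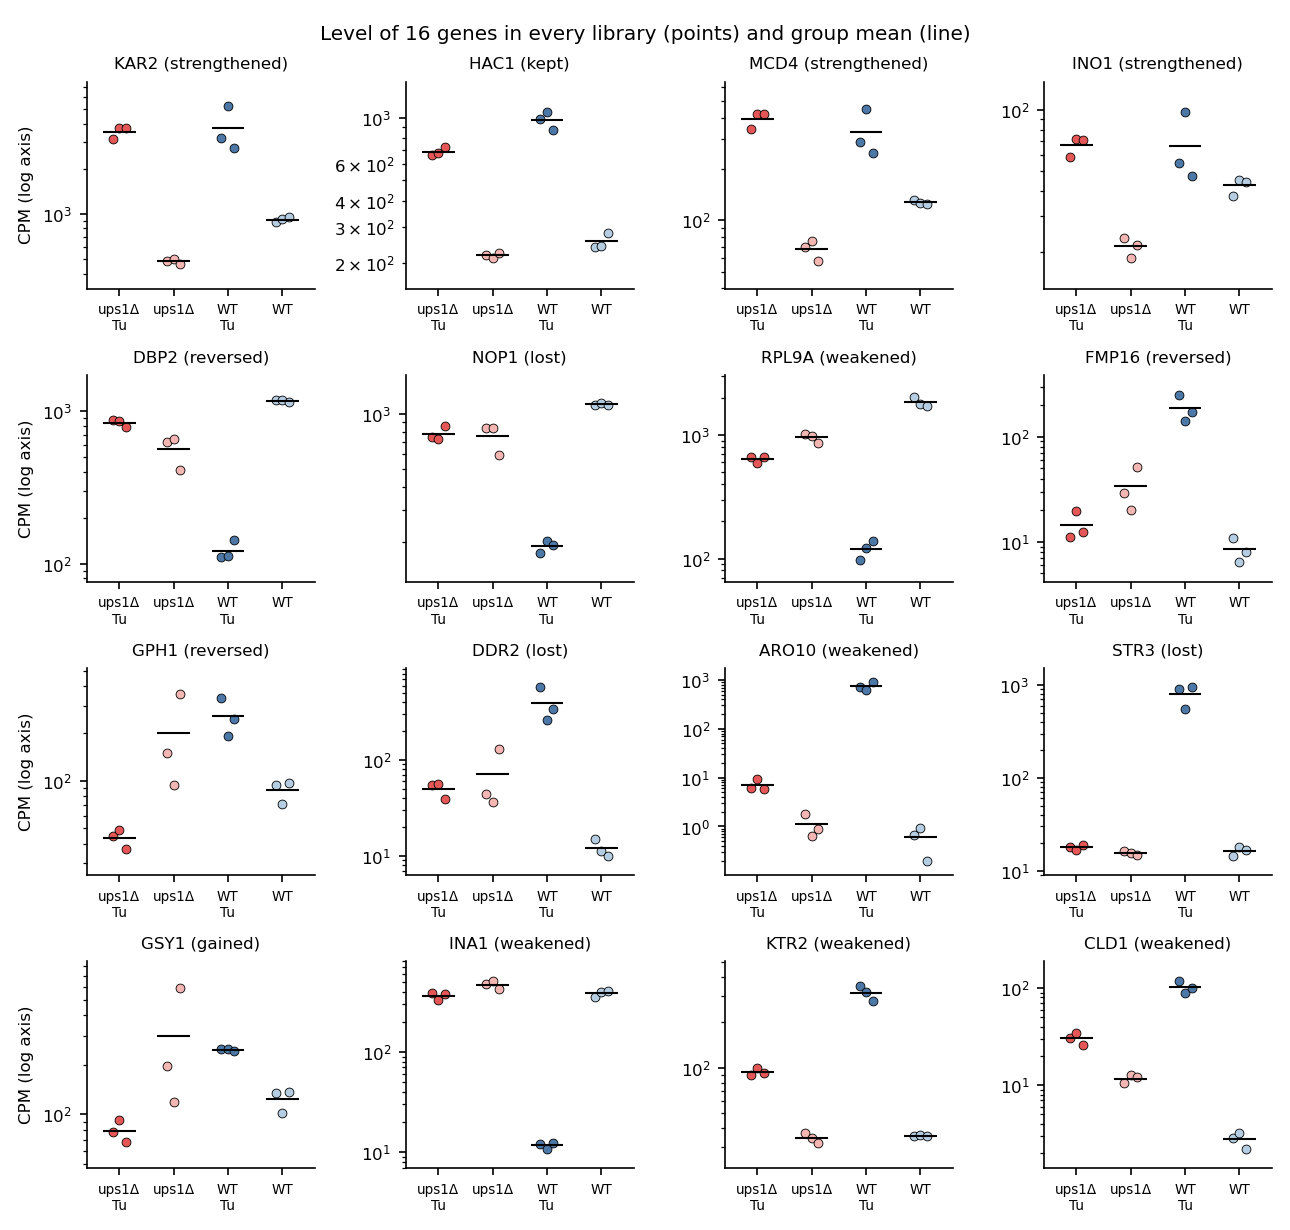
CPM on a log axis of 16 genes in every library (points) with the group mean (line), in the order treated ups1Δ, untreated ups1Δ, treated WT and untreated WT. For KAR2 and MCD4 the treated strains meet and the untreated ups1Δ libraries are lowest, for DBP2 the treated WT libraries are lowest at 111 to 142 CPM, and for STR3 and ARO10 the treated WT libraries are far above the other groups.

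The promoter elements thus fell differently over the classes, which is given as a description, since the lists and elements were chosen with results known. The UPRE-1 core was in 2 of 17 promoters (11.8%) of genes strengthened upwards against 1.01% of all, those of KAR2 and LHS1, and STRE was in 0 of these 17. RRPE was in 69.7% of the 238 promoters of genes that rose in ups1Δ and fell in WT cells and in 32.9% of those whose fall was lost. Gcn4 sites were in 4.54% of the promoters of genes whose rise was lost and MCB in 5.15% of those whose fall was lost.

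**Figure D5:**
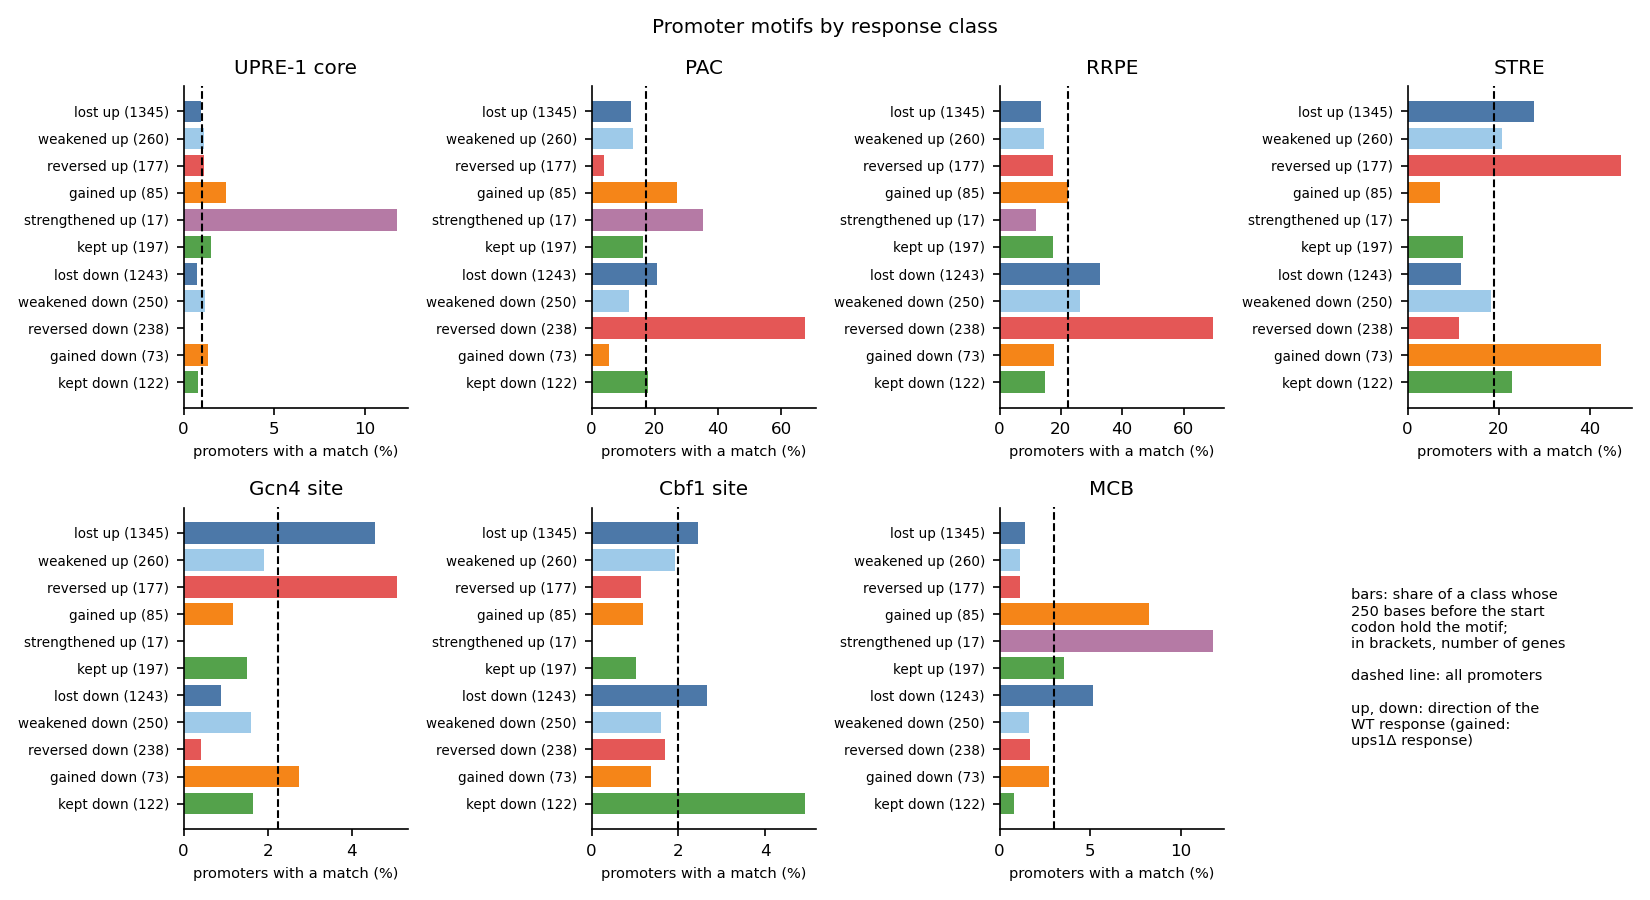
Share of promoters (x axis, percent) with a match to each of 7 sequence elements, by response class and direction, with the number of genes in brackets and a dashed line at the share of all 5646 promoters, leaving out the few genes strengthened downwards. PAC and RRPE reach 67.6% and 69.7% among reversed genes that fell in WT cells, and STRE reaches 46.9% among reversed genes that rose in WT cells.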

How the data were processed

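RNA was poly(A)-selected and sequenced from the 12 libraries described above. The authors quantified reads without alignment by kallisto on sacCer3 and deposited estimated counts per gene, here whole numbers. Deposited tables of the authors' own comparisons hold log2 fold changes, p-values and normalized values and were not used.

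Counts were taken as they stood. Genes passing edgeR's filterByExpr over the 4 groups were scaled by TMM and fitted together over all 12 libraries with edgeR 4.0.16 (glmQLFit, robust) in R 4.3.3, and the ups1Δ response, the WT response and their difference were tested with glmQLFTest and Benjamini-Hochberg adjustment over all genes (threshold 0.05). The test was run on simulated counts first. A count of 3, the limit that a count of 0 allows, was worth 0.415 to 0.696 CPM in these libraries and covers counting error only. CPM values use TMM-scaled library sizes, and all values are relative to the other mRNAs of a library.

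Genes named were, for each class, the 4 with the largest interaction (for kept genes, the largest mean response) among those with at least 20 CPM in a group and no overlap of libraries where a response was called, up to 3 members at either end of each of 55 gene lists and up to 2 members past no threshold, and genes named in the study's text. The members, lists and sequence elements were chosen with earlier results of these data known. Lists are described by counts and medians with no set test. Promoters were the 250 bases before each start codon in RefSeq R64, the files' build (sacCer3), searched for exact matches on both strands.

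Alternatives were DESeq2 1.42.0 and its size factors, library size alone, dropping the filter, a minimum of 10 counts per library, a threshold of 0.01, an added minimum log2 change of 1 in size, the replicate number as a block, each genotype fitted on its own 6 libraries, and each library left out. Leaving out both libraries that stood apart was added after the data were seen.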

Additional observations from a re-analysis of the deposited data

Results flagged for a closer look

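The difference between the tunicamycin responses of ups1Δ and WT cells was tested directly by the interaction, and it passed for 3849 genes by edgeR's quasi-likelihood test. Of the genes named for the classes, those with a lost response had interactions of −6.05 (ARO9), −5.75 (PIR3), −5.69 (SNO1) and −5.58 (SUL1) on the log2 scale. Weakened responses had interactions of −7.57 (ARO10), −5.45 (HXT5), 4.68 (INA1) and −4.24 (NQM1). Reversed responses had interactions of −5.65 (FMP16), −3.90 (DCS2), 3.84 (DBP2) and −3.77 (GPH1). Gained responses had interactions of −2.92 (GSY1), −1.78 (YRO2), −1.56 (SAP4) and −1.53 (NCE102). Strengthened responses had interactions of −1.32 (HSP30), 1.17 (MCD4), 1.02 (INO1) and 0.84 (KAR2).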

How the results depend on the processing

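Many of the 90 named genes were picked for large interactions in these data, so their stability does not describe genes at large. Without treated ups1Δ replicate 2, 244 of the 417 reversed and 272 of the 524 weakened genes stayed in their class. Of 1795 values of the 90 named genes under the alternatives, 1752 kept their sign and their side of the threshold, 11 lost the threshold, 19 gained it and 13 changed sign. The changes of sign were in genes whose interaction had not passed: JEM1 was −0.057 and ULI1 −0.091 with library size as the scale, FMP48 was −0.37 with it and −0.0006 with a minimum of 10 counts per library, YET2 was 0.047 without both libraries that stood apart, and with 1 library left out ULI1 ranged from −0.058 to 1.36 and FMP48 from −0.23 to 0.56. List medians changed sign with library size as the scale for HAC1 and IRE1 signalling (−0.377), GPI anchor assembly (−0.293), histones (−0.177), the proteasome (−0.043) and the phosphate regulon (−0.204). The medians of HAC1 and IRE1 signalling (0.010) and of purine and one-carbon synthesis (−0.009) lay near 0 and took either sign over the alternatives. The sign also changed for mitochondrial chaperones without both libraries that stood apart (0.013) and over single libraries left out (−0.183 to 0.042). Library size also gave 12 strengthened genes, and leaving out both libraries gave 36. An adjusted p under 0.01 gave 802 genes in ups1Δ cells and 233 weakened, 179 reversed, 100 gained, 9 strengthened and 205 kept genes. A minimum log2 change of 1 in size left 1931 interaction genes, 218 genes in ups1Δ cells and 2032 in WT cells. With 1 library left out, genes called in ups1Δ cells ranged from 895 to 1849, weakened from 277 to 615, reversed from 244 to 542, gained from 96 to 198, strengthened from 14 to 35 and kept from 212 to 340.

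With the replicate number as a block, 3778 interaction genes, 1406 genes in ups1Δ and 4470 in WT cells were called. Deviations of same-numbered libraries of different groups correlated at −0.24 to 0.108, over 0.1 in 1 of 18 pairs. Those of libraries with other numbers correlated at −0.216 to 0.298, over 0.1 in 7 of 36 pairs. With 3 libraries per group these values cannot decide whether same-numbered libraries shared a culture or batch. With library size as the scale the share of rises among called genes was 78.9% against 54.4% with TMM in ups1Δ cells, and 73.9% against 52.5% in WT cells. Depth limits the low genes: ARO10, SUL1 and SNO1 had 0 to 1 CPM in untreated WT libraries.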

Other observations

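Lists not described above were mixed. Among all genes 32.9% had a positive and 33.2% a negative interaction. Of 10 histone genes, 4 had a positive interaction and 4 were kept, but 0 were kept without treated ups1Δ replicate 2 or 3, 1 without ups1Δ replicate 1 and 2 without ups1Δ replicate 2. Of 12 cyclins 6 were positive, all lost, or 3 with library size as the scale. Of 30 ergosterol genes 16 were positive, or 8 with library size as the scale. Of 29 sphingolipid genes 16 were positive and 8 negative, or 4 negative without WT replicate 1 or treated WT replicate 1, 5 without any 1 of WT replicates 2 and 3, treated WT replicate 2, ups1Δ replicate 3 and treated ups1Δ replicate 1, and 13 with library size as the scale. Among 41 subunits of the respiratory chain and ATP synthase, 19 were negative and 3 positive (31 and 1 with library size as the scale, 15 and 6 without both libraries that stood apart, and 1 positive without any 1 of WT replicate 1, treated WT replicate 3, ups1Δ replicate 2 and treated ups1Δ replicate 2), with a median response of −0.104 in ups1Δ and 0.178 in WT cells. Of 27 genes of thiol and superoxide defence 14 were negative and 8 positive, of 16 genes of pleiotropic drug resistance 9 and 1, of 27 phosphate genes 7 and 10 (12 and 6 with library size as the scale), and of 21 purine and one-carbon genes 8 and 5, or 5 negative without treated WT replicate 1 or 3.

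Of 26 genes of the pheromone response that both mating types share, 13 were negative and 3 positive, and their median response was 0.048 in ups1Δ and 0.595 in WT cells. The strains differed in mating type, so that this difference cannot be told apart from that of Ups1. Of 34 proteasome genes 20 were positive and 22 lost (64.7%, against 45.5% of all genes), or 3 positive with library size as the scale. Of 14 eisosome and SUR7 family genes 10 were negative and 3 gained (21.4%, against 2.75% of all genes), or 1 gained without both libraries that stood apart or with library size as the scale. The list of cardiolipin genes and the UPS family had 4 negative and 2 positive members of 10. UPS1, the gene of this family that was deleted, has no ups1Δ response to compare. Of 23 hexose transporters 17 were tested and 6 were negative, near the 33.2% of all genes. With library size as the scale 7 of the cardiolipin and UPS list and 13 hexose transporters were negative.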
